A study of Mus musculus with 6 samples.

Results

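The potassium channel genes were taken as every gene of the count table whose symbol is Kcn followed by lower-case family letters and a number, which gave 92 of 24411 genes. They comprised 40 pore subunits of voltage-gated channels, 11 auxiliary subunits of voltage-gated channels, 15 inward rectifiers, 14 two-pore channels and 12 calcium- and sodium-activated channels. Their mRNA was measured in EDL (extensor digitorum longus, a muscle of the hindlimb made mostly of fast-twitch fibres) of 3 mAktDKO mice and 3 control floxed mice, all on the C57BL/6J strain and at the age of 50 weeks. Both groups carried floxed alleles of Akt1 and Akt2, the kinases that relay the insulin signal, and only the mAktDKO mice also carried Cre recombinase knocked in at Mlc1f, a myosin light-chain gene used mainly in fast-twitch fibres and little in their precursors. Whole muscle also holds vessels, nerves, connective tissue and immune cells, and lower counts from fewer cells of a type cannot be told apart in such RNA from less RNA per cell. The study's methods give male mice as the default. Libraries were depleted of ribosomal RNA, and the deposited values were estimated read counts per gene, with totals from 13738795 to 15445523 per mouse.

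Potassium channels set the resting potential of the muscle fibre and end each action potential. Voltage-gated channels open on depolarisation and repolarise the membrane. Inward rectifiers hold the resting potential and carry potassium back from the T-tubules, and those built from Kir subunits with sulfonylurea receptors, the KATP channels, open when ATP falls. Two-pore channels give background leak currents, whereas calcium-activated channels of the BK and SK types couple the membrane to intracellular calcium. Some pore subunits, such as those of the Kcng, Kcnf, Kcns and Kcnv families, form no channel alone and change the properties of the voltage-gated channels with which they assemble.

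The labels were checked first. Akt2 was 51.0 ± 1.82 CPM (reads per 1e6 of the TMM-scaled library, SD, n = 3) in mAktDKO EDL and 149 ± 20.3 CPM (SD, n = 3) in control EDL, with an adjusted p of 0.000923 in edgeR's quasi-likelihood test. Akt1 had a log2FC (log2 fold change, mAktDKO over control) of -0.25 (edgeR adjusted p = 0.115), and the counts per gene cannot show how much of its targeted part was lost. The 7 fast-twitch fibre markers were far above the slow-twitch ones and summed to 101727 to 112086 CPM in mAktDKO EDL and 114085 to 123669 CPM in control EDL. All 7 had a negative log2FC (median -0.18), and 5 of 6 slow-twitch markers a positive one (median 0.46, summed levels 644 to 1257 against 569 to 829 CPM). Most lists of other cell types had positive medians: 0.29 for endothelium (4 of 5 higher, summed levels 404 to 470 against 334 to 434 CPM), 0.51 for leukocytes (5 of 5, 49.5 to 59.98 against 32.6 to 47.8 CPM), 0.44 for fibroblasts (4 of 4, 18175 to 21680 against 7261 to 18320 CPM) and 0.88 for adipocytes (5 of 5, 178 to 310 against 153 to 204 CPM). Their part in the values of the channel genes was not tested. Of the 54 marker genes tested, 22 had an unadjusted p under 0.05 and 0 an adjusted p under 0.01 in edgeR, whereas DESeq2 called 4 at that threshold (Myh1, Pvalb, Dcn and Myog). Of 12892 genes tested by edgeR, the median log2FC was 0.017.

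Only 37 of the 92 potassium channel genes were expressed highly enough to be tested. Of the 55 below the filter on low counts, 17 had 0 counts in every mouse, 28 had a highest count of 1 to 10, and 10 (Kcnc2, Kcnd3, Kcng1, Kcns1, Kcns3, Kcnip3, Kcnj13, Kcnk13, Kcnmb4 and Kcnu1) had a highest count above 10, at most 19. With a floor of 3 counts, a level under 0.180 to 0.227 CPM could not be shown in a mouse. Among the tested genes, 19 had a higher and 18 a lower estimate in mAktDKO EDL, with a median log2FC of 0.059 and a range from -1.84 to 0.81. With library totals in place of TMM, a scaling that moved the median of all genes to 0.16, the split was 24 higher and 13 lower, and the median was 0.19. The study used DESeq2 with a threshold of an adjusted p under 0.01. In edgeR, 0 of the 37 genes passed that threshold, against 0.0233% of all genes tested. By DESeq2's Wald test 4 of the 24 genes it covered passed, against 3.15% of the genes with a DESeq2 adjusted p. Kcng4 (DESeq2 adjusted p = 1.23e-15), Kcna7 (3.74e-09) and Kcnc1 (0.000373) were lower, and Kcna1 (0.00943) was higher. At an adjusted p under 0.05 DESeq2 added Kcnab1 (higher) and Kcnj12 (lower), which made 6 of the 24 it covered, against 7.47%. At an adjusted p under 0.05, edgeR called 3 genes, Kcng4, Kcna7 and Kcnc1, all lower and all voltage-gated pore subunits, which was 8.11% of the tested potassium channel genes against 1.18% of all genes, or 0.915% when only lower ones are counted. Under other settings edgeR also called higher genes at this threshold, Kcna1 and Kcna2 with library totals (beside Kcng4 and Kcna7), and Kcna1 and the auxiliary subunit Kcnab1 with no filter on low counts (beside the 3 lower ones) or without control mouse 4 (beside Kcng4 and Kcna7). Without adjustment, 12 genes had a p under 0.05, 3 higher and 9 lower, or 32.4% against 24.5% of all genes. The 2 groups of mice did not overlap for 11 genes (3 higher and 8 lower, against 7 and 7 with library totals), or 29.7% against 31.1% of all genes, so such separation was about as frequent as in the whole table.

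**Figure D1:**
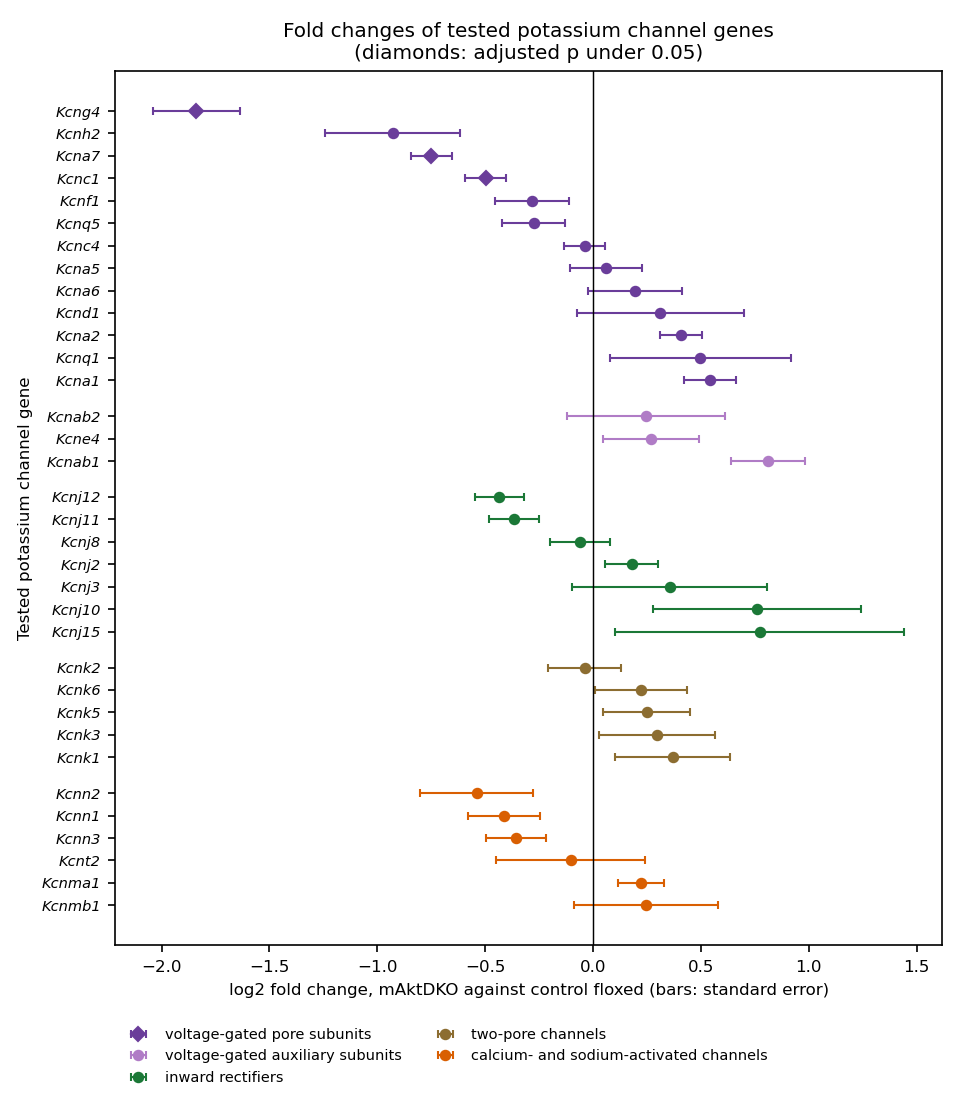
Log2 fold change (x axis, mAktDKO against control floxed mice, n = 3 each) with its standard error for 34 of the 37 tested potassium channel genes (y axis), coloured by group. The 3 diamonds, Kcng4, Kcna7 and Kcnc1, have an edgeR adjusted p under 0.05 and lie left of 0, at -1.84, -0.75 and -0.50.

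Kcng4, a modifying subunit of voltage-gated channels, had the largest difference of the 37 genes. It lies on the minus strand of chromosome 8 of mm10 from 119623854 to 119635680. Its level was 9.004, 7.61 and 10.8 CPM in mAktDKO mice 1, 2 and 3, and 31.6, 41.7 and 24.6 CPM in the controls numbered 2, 3 and 4 in the table. Every mAktDKO mouse was thus below every control mouse, the nearest values being 10.8 and 24.6 CPM. Group means were 9.15 ± 1.62 CPM and 32.6 ± 8.55 CPM (SD, n = 3 each), a log2FC of -1.84 (SE 0.20, edgeR adjusted p = 0.0180), or 0.280 times the control level. It was also the only tested potassium channel gene with a difference beyond 2-fold, which 1.53% of all genes had.

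Kcna7, a Shaker-type channel known for its expression in skeletal and heart muscle, was the most abundant potassium channel mRNA per length. Counted per kilobase of its annotated exons, it was at 111 CPM per kb in control EDL and 66.1 CPM per kb in mAktDKO EDL. The next in control EDL were Kcnj11 (38.6 CPM per kb), Kcnj12 (28.5 CPM per kb), Kcnc4 (27.2 CPM per kb), Kcnc1 (26.6 CPM per kb) and Kcnj2 (24.5 CPM per kb), and the last 4 of these lay within the spread between mice of each other. The gene spans 45405653 to 45409763 on chromosome 7 of mm10, on the plus strand. Kcna7 had 142, 138 and 152 CPM in mAktDKO EDL and 272, 232 and 223 CPM in control EDL, without overlap. Its log2FC was -0.75 (SE 0.096, edgeR adjusted p = 0.0180). Its share of the summed CPM of all voltage-gated pore subunits was 23.5% ± 0.474 (SD, n = 3) in mAktDKO EDL and 29.6% ± 2.79 (SD, n = 3) in control EDL.

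Kcnc1 encodes a Shaw-type channel that opens at strong depolarisation and closes quickly, as in fast-firing neurons. It lies on the plus strand of chromosome 7 from 46396497 to 46438704. The mAktDKO mice had 161, 175 and 194 CPM and the control mice 269, 235 and 245 CPM, again without overlap, and the log2FC was -0.50 (SE 0.095, edgeR adjusted p = 0.0482). Its relative Kcnc4 had 97.8, 97.9 and 94.9 CPM in mAktDKO EDL and 87.2, 111 and 100.4 CPM in control EDL. There the mAktDKO values lay inside the range of the control values, and the log2FC of -0.040 (SE 0.097, edgeR adjusted p = 0.825) turned to 0.097 with library totals.

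The calls of Kcng4, Kcna7 and Kcnc1 at an adjusted p under 0.05 in edgeR needed all 3 mAktDKO mice. DESeq2 was not run with a mouse left out. Without mAktDKO mouse 1, 2 or 3 the adjusted p was 0.0966, 0.0949 and 0.0630 for Kcng4, 0.0966, 0.136 and 0.0773 for Kcna7, and 0.131, 0.234 and 0.0967 for Kcnc1, all from edgeR. Kcng4 and Kcna7 kept the call without any one control mouse, while Kcnc1 lost it, with an adjusted p of 0.0614, 0.0911 and 0.0519 without control mouse 2, 3 and 4. Among the scalings, Kcnc1 also missed 0.05 with library totals (0.0560) and upper-quartile scaling (0.0501). The 7 fast-fibre markers, all with negative estimates, ranged from Myh1 (-0.51, adjusted p = 0.0539) and Pvalb (-0.41, adjusted p = 0.0966) to Myh4 (-0.018), all from edgeR, and their part in the result was not tested. The log2FC of the channel genes without one mouse was from -2.01 to -1.63 for Kcng4, from -0.81 to -0.66 for Kcna7 and from -0.58 to -0.44 for Kcnc1.

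**Figure D2:**
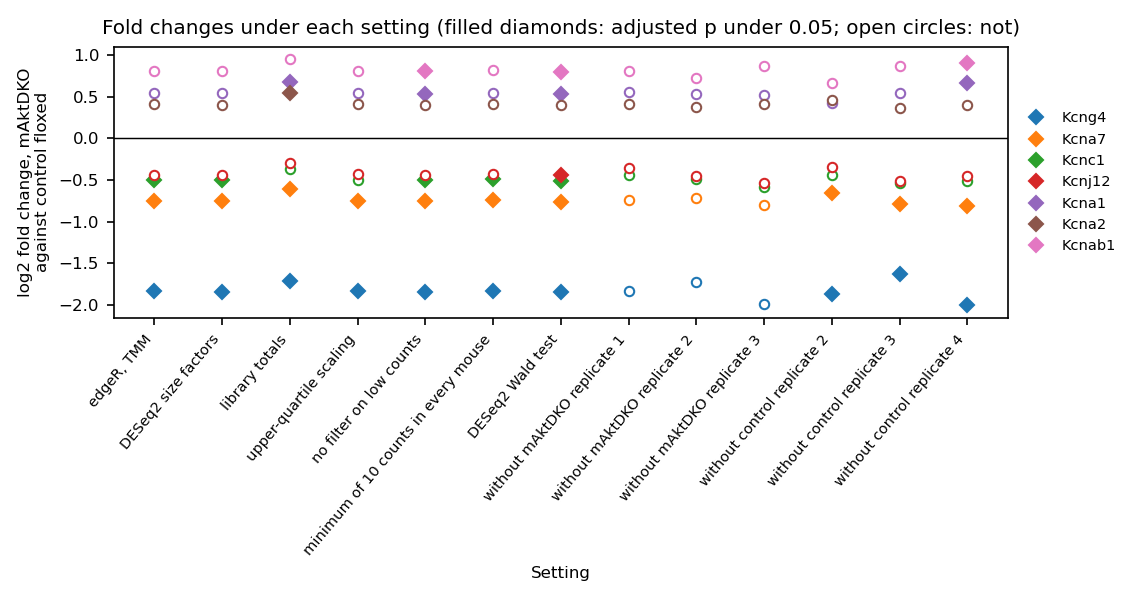
Log2 fold change (y axis, mAktDKO against control floxed mice) of 7 potassium channel genes under the edgeR fit with TMM scaling and 12 other settings (x axis). Filled diamonds have an adjusted p under 0.05, and Kcng4 stays between -2.01 and -1.63 throughout, with open circles in the 3 fits that leave out an mAktDKO mouse.

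To show the sequence upstream of these genes, the 250 bases before the RefSeq start site of Kcng4 and Kcnc1 are given on build GRCm38.p6, each from 5′ to 3′ on the strand of the gene, with the E-box CANNTG, the core sequence that myogenic factors bind, in capitals. The region of Kcng4 is chr8:119635681-119635930, minus strand, and that of Kcnc1 is chr7:46396218-46396467, plus strand. The corresponding window of Kcna7 was not shown.
Kcng4: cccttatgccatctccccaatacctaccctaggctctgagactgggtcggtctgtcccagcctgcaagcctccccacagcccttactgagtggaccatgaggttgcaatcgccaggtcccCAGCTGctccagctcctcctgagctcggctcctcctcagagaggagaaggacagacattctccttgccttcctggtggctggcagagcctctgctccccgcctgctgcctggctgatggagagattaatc
Kcnc1: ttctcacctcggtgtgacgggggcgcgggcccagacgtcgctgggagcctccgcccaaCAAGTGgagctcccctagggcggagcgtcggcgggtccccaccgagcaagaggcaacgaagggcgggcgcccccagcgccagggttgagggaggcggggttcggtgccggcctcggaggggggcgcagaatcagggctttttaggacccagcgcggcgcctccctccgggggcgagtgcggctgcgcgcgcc
Each window held 1 E-box, a pattern that matches on both strands wherever it matches on one, and neither held GTAAACA, a core sequence bound by FoxO factors, on either strand. Among all 32851 RefSeq windows of this length, 66.2% held an E-box and 3.17% held GTAAACA. Of the 92 windows found for 67 of the potassium channel genes, 61 (66.3%) held an E-box and 0 held GTAAACA.

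Among the remaining voltage-gated pore subunits, Kcna1 and Kcna2 had higher estimates in mAktDKO EDL. Both encode Shaker-type channels that can assemble with each other and are best known from the axon membrane beside the nodes of Ranvier. Kcna1 had 36.0, 37.02 and 36.96 CPM in mAktDKO EDL and 20.8, 25.2 and 29.5 CPM in control EDL, with no overlap. Its log2FC of 0.54 (standard error 0.12) had an adjusted p of 0.0594 in edgeR, and one of 0.00943 in DESeq2. Kcna2 had 19.1, 20.4 and 18.7 CPM against 15.7, 13.71 and 14.4 CPM, a log2FC of 0.41 (SE 0.098, edgeR adjusted p = 0.0661). Kcnab1, the cytoplasmic beta subunit that binds Shaker-type channels and speeds their inactivation, was at 7.86, 8.69 and 6.99 CPM in mAktDKO EDL and 3.57, 4.81 and 5.07 CPM in control EDL. Its log2FC was 0.81 (SE 0.17, edgeR adjusted p = 0.0562), the highest of the 37 genes. With TMM scaling these 3 were the only ones of the 37 tested genes for which all mAktDKO values lay above all control values, which 14.6% of all genes had. Kcna1 over Kcna7, on the log2 scale and free of scaling between mice, was -1.98, -1.90 and -2.04 in mAktDKO EDL and -3.71, -3.20 and -2.92 in control EDL, a difference of 1.302 (two-sided exact permutation p = 0.1, the smallest that 3 mice against 3 allow, and a ratio chosen after the values were seen). Since each of the 2 genes separated the groups, in opposite directions, the ratio had to separate them too. Its p is therefore no further evidence.

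Since Kcna1, Kcna2 and Kcnab1 are also genes of peripheral nerve, the 8 markers of Schwann cells and nerve were set beside them. Of these, 6 had a higher estimate (median log2FC 0.15), 2 with an unadjusted p under 0.05, and their summed level was 431 to 568 CPM in mAktDKO EDL and 379 to 455 CPM in control EDL, so that the ranges overlapped. Sox10, the defining factor of the Schwann cell, had a log2FC of 0.055, and Mag, a protein of myelin, one of -0.51 (edgeR adjusted p = 0.227). The part of nerve RNA in the values of the 3 channel genes was not tested. Of 7 markers of denervated fibres, 5 had a higher estimate, with a median log2FC of 0.35 and summed levels of 99.7 to 120.6 CPM against 71.0 to 87.3 CPM, ranges that did not overlap. Among them Myog, a myogenic factor, had a log2FC of 1.06 (edgeR adjusted p = 0.0642), Runx1 one of 0.60 (edgeR adjusted p = 0.131) and Chrna1, a subunit of the acetylcholine receptor, one of 0.42 (edgeR adjusted p = 0.0752), while Chrng, the fetal subunit, had 2 to 12 counts per mouse, too few to read a difference. Their part in the result was not tested either.

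The other voltage-gated pore subunits had smaller or less certain differences. Kcnh2, which carries the rapid delayed rectifier current of the heart, had 2.73, 1.198 and 1.37 CPM in mAktDKO EDL and 3.29, 3.72 and 3.10 CPM in control EDL. The groups did not overlap, but mAktDKO mouse 1 lay nearer to the control mice than to the other mAktDKO mice, and the log2FC of -0.93 had a standard error of 0.31 (edgeR adjusted p = 0.127). Kcnq5, one of the subunits of the slow M-type current, had a log2FC of -0.28 (edgeR adjusted p = 0.268), with 23.1 to 32.8 CPM in mAktDKO EDL and 29.9 to 36.7 CPM in control EDL. The modifying subunit Kcnf1 also had one of -0.28 (edgeR adjusted p = 0.330). Kcna5 (0.059) and Kcna6 (0.19) were close to 0, and RSEM had split reads between them, as their counts were not whole in 6 of 6 mice but their sum was. Kcnd1 (0.31) and Kcnq1 (0.50) averaged close to 1 CPM or less, with standard errors of 0.39 and 0.42. In all, 10 of the 16 tested pore subunits had a lower estimate and 6 a higher one, with a median log2FC of -0.17. With library totals the split was 8 and 8 (median -0.025), and with no filter on low counts, which takes in 36 genes, the median was 0.063. The 24 others were below the filter. Among them Kcnv2, another modifying subunit, had 0 counts in each mAktDKO mouse and 3, 2 and 5 counts in control EDL, which is at the floor of what this depth can show. Exons of Kcnq5 and, among the genes given by mouse, of Kcnab1, Kcnma1 and Kcnn1 overlap a gene of the opposite strand, and whether counting used the strand is not given in the sources used here.

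The summed level of the 40 pore subunits was 595, 602 and 646 CPM in mAktDKO EDL and 827, 830 and 795 CPM in control EDL. The ratio of the group means was 0.751, and the groups did not overlap. This sum was mostly Kcna7, Kcnc1 and Kcnc4 and is given as a description. The sum of the 11 auxiliary subunits lay the other way, at 14.5, 14.6 and 12.2 CPM in mAktDKO EDL and 7.48, 10.1 and 9.90 CPM in control EDL, without overlap and with a ratio of 1.502. Kcnab1 alone averaged 7.85 CPM in mAktDKO EDL, where the sum averaged 13.8 CPM. In control EDL these means were 4.48 and 9.18 CPM, so the difference in this sum was mostly that of Kcnab1. Summed over all 92 potassium channel genes, the level was 1120 ± 41.4 CPM (SD, n = 3) against 1334 ± 63.5 CPM (SD, n = 3).

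**Figure D3:**
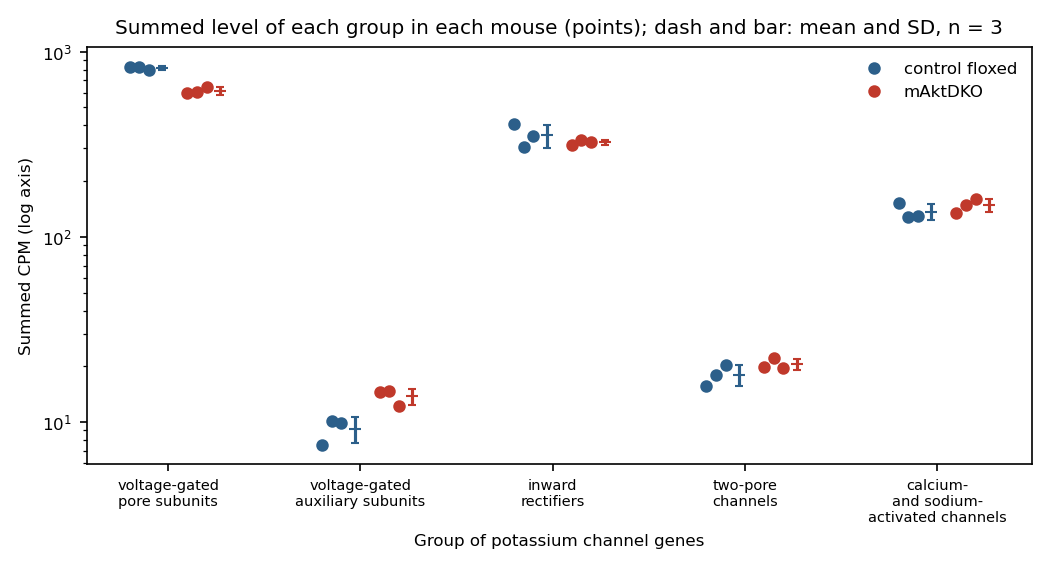
Summed CPM (y axis, log scale) of the 5 groups of potassium channel genes (x axis) in each control floxed and mAktDKO mouse (points), with the mean and SD (n = 3). The voltage-gated pore subunits lie at 595 to 646 CPM in mAktDKO EDL and 795 to 830 CPM in control EDL, the auxiliary subunits at 12.2 to 14.6 and 7.48 to 10.1 CPM, and the inward rectifiers, two-pore channels and calcium- and sodium-activated channels overlap between the groups.

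Of the 11 auxiliary subunits of voltage-gated channels, only Kcnab1, Kcnab2 and Kcne4 were tested. Kcnab2, another beta subunit, had a log2FC of 0.25 and Kcne4, which reduces the current of Kcnq1 and of Shaker-type channels, one of 0.27, with standard errors of 0.37 and 0.22. Kcne3, a subunit linked to the muscle channel Kcnc4, had at most 5 counts in a mouse and was not tested. The table also holds Kcne1l, the former symbol of Kcne5, an auxiliary subunit on chromosome X (142304752 to 142306294, minus strand) that reduces the current of Kcnq1. Its symbol ends in a letter and so falls outside the rule, and it was singled out after its values were seen. It had 12.8, 17.9 and 16.5 CPM in mAktDKO EDL and 3.85, 7.003 and 6.80 CPM in control EDL, without overlap. Its log2FC of 1.42 (SE 0.22, edgeR adjusted p = 0.0394) was higher than that of any of the 37 genes. The adjusted p was 0.0966, 0.198 and 0.115 without mAktDKO mouse 1, 2 and 3, and 0.0163, 0.0650 and 0.0376 without control mouse 2, 3 and 4.

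**Figure D4:**
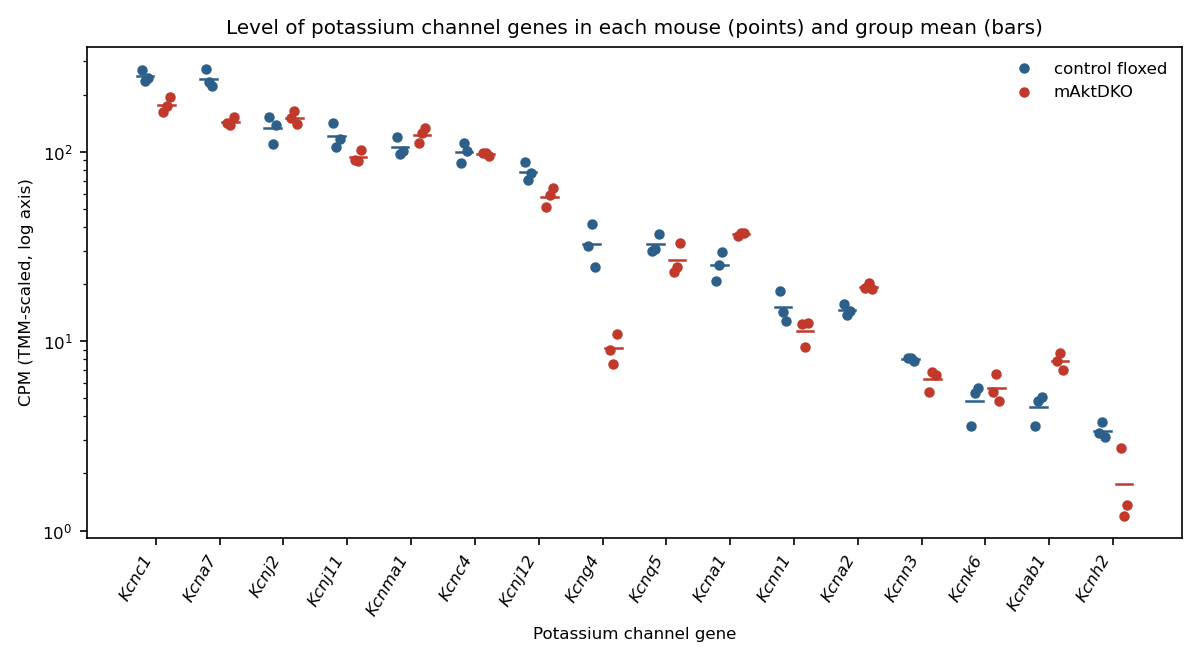
Level of 16 potassium channel genes (x axis, ordered by their control mean) in CPM on a log axis, with a point for each mouse and a bar for the mean of each group (n = 3). CPM is not corrected for gene length, so levels are to be read within a gene, where Kcng4 shows the widest gap, with 7.61 to 10.8 CPM in mAktDKO EDL and 24.6 to 41.7 CPM in control EDL.

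Among the inward rectifiers, the 2 strong rectifiers of the muscle fibre had estimates of opposite sign. Kcnj2, whose channel sets the resting potential, had 150, 164 and 139 CPM in mAktDKO EDL and 152, 109 and 139 CPM in control EDL. These groups overlapped (log2FC 0.18, SE 0.12, edgeR adjusted p = 0.396). Kcnj12, a close relative that can assemble with it, had 50.8, 58.7 and 64.2 CPM against 87.7, 70.4 and 76.8 CPM, with no overlap and a log2FC of -0.44 (SE 0.11, edgeR adjusted p = 0.0761 and 0.0179 from DESeq2). On the log2 scale Kcnj2 over Kcnj12 was 1.56, 1.48 and 1.12 in mAktDKO EDL and 0.79, 0.63 and 0.85 in control EDL (two-sided exact permutation p = 0.1, the smallest possible, for a ratio chosen after the values were seen). Kcnj11, the pore subunit of the muscle KATP channel, had 90.6, 89.5 and 102 CPM in mAktDKO EDL and 142, 106 and 116 CPM in control EDL. The highest mAktDKO mouse was just below the lowest control mouse, and the log2FC was -0.37 (SE 0.12, edgeR adjusted p = 0.112).

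Kcnj8, the KATP pore subunit of pericytes and vascular smooth muscle, was nearly level between the groups, at 17.04 and 17.7 CPM on average (log2FC -0.059, SE 0.14, edgeR adjusted p = 0.820). The 7 markers of vascular smooth muscle and pericytes had a median log2FC of -0.040, and their sums of 606 to 725 CPM and 567 to 653 CPM overlapped. Kcnj3, Kcnj10 and Kcnj15 each averaged under 2 CPM in both groups, with log2FCs of 0.35, 0.76 and 0.77 and standard errors of 0.45, 0.48 and 0.67. The highest count of Kcnj15, 46, was from mAktDKO mouse 2, and the other mice had 7 to 13. In all, 4 of the 7 tested inward rectifiers had a higher and 3 a lower estimate (median 0.18), and 8 were below the filter. This median had no stable sign, being -0.21 for the 4 genes with at least 10 counts in every mouse, -0.22 for the 4 that DESeq2 covered, -0.088 and -0.070 without mAktDKO mouse 1 and 2, and 0.32 with library totals.

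None of the 5 tested two-pore channels had an unadjusted p under 0.05 in edgeR, and DESeq2, which gave an adjusted p for Kcnk6 and Kcnk2, called 0 at its threshold of 0.01. Kcnk6, with Kcnk2 the highest of them by CPM, was at 5.39, 6.71 and 4.80 CPM in mAktDKO EDL and 3.57, 5.33 and 5.67 CPM in control EDL, which overlapped. Kcnk2, a channel opened by stretch and lipids, had a log2FC of -0.039. The acid-sensitive channel Kcnk3 and the alkali-activated channel Kcnk5 had estimates of 0.30 and 0.25, and Kcnk1 one of 0.37, with standard errors of 0.27, 0.20 and 0.27. The median of the 5 was 0.25, with 4 higher and 1 lower (5 and 0 with library totals), and 9 two-pore channels were below the filter. This median was 0.15 without mAktDKO mouse 2, 0.13 without control mouse 2 or 3, 0.34 without control mouse 4, and 0.081 for the 2 genes that DESeq2 covered.

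Among the calcium-activated channels, the BK pore subunit Kcnma1 and the SK subunits Kcnn1, Kcnn2 and Kcnn3 had estimates of opposite sign. Kcnma1 made up 83.2% ± 1.13 (SD, n = 3) of the summed CPM of this group in mAktDKO EDL and 77.2% ± 1.67 (SD, n = 3) in control EDL. It had 111, 125 and 133 CPM against 119.6, 96.6 and 100.4 CPM, and the log2FC of 0.22 (standard error 0.11) did not pass (edgeR adjusted p = 0.237). Kcnn3, the SK subunit known to appear in denervated muscle, had 5.39, 6.89 and 6.58 CPM in mAktDKO EDL and 8.11, 8.17 and 7.86 CPM in control EDL. The groups did not overlap, and its log2FC was -0.36 (SE 0.14, edgeR adjusted p = 0.163). For Kcnn1 the mAktDKO mice had 12.2, 9.34 and 12.5 CPM and the control mice 18.3, 14.2 and 12.8 CPM, so that the groups all but met (log2FC -0.41, SE 0.17, edgeR adjusted p = 0.172). Kcnn2 had an estimate of -0.54 with a standard error of 0.26. The smooth muscle BK subunit Kcnmb1 (0.24) and the sodium-activated Kcnt2 (-0.10) both averaged under 2 CPM. In this group 4 of the 6 tested genes had a lower estimate (median -0.23), and 6 were below the filter. The median was -0.084 and -0.069 without mAktDKO mouse 1 and 3, and -0.092 and -0.15 without control mouse 3 and 4. The split was 3 and 3 with library totals, and with no filter 7 of 11 genes had a higher estimate (median 0.21).

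A list of 23 partners and neighbours of the potassium channels was read from the same fit, and 19 were tested. Of these, 0 passed an adjusted p under 0.01 or under 0.05 in edgeR. Without adjustment, 5 had a p under 0.05, all lower, or 26.3% against 24.5% of all genes, and DESeq2 called 2 at an adjusted p under 0.01, among them Scn4b. Scn4b, a beta subunit of the muscle sodium channel, had 449, 395 and 460 CPM against 646, 578 and 525 CPM, without overlap and with a log2FC of -0.42 (edgeR adjusted p = 0.0693). The pore subunit of that sodium channel, Scn4a, had a log2FC of -0.14 (edgeR adjusted p = 0.503), and the chloride channel Clcn1, which carries most of the resting conductance of the fibre, one of -0.19 (edgeR adjusted p = 0.282).

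Of the sulfonylurea receptors, Abcc9 was at 485 ± 20.7 CPM (SD, n = 3) in mAktDKO EDL and 469 ± 15.9 CPM (SD, n = 3) in control EDL, with a log2FC of 0.049 (edgeR adjusted p = 0.732). Abcc8 was far lower, at 1.65, 2.10 and 1.23 CPM against 3.22, 2.04 and 2.95 CPM, and these values overlapped (log2FC -0.71, edgeR adjusted p = 0.168). Abcc9 over Kcnj8 on the log2 scale, a ratio chosen after the values were seen, differed by 0.097 (two-sided exact permutation p = 0.7). Lrrc38, an auxiliary gamma subunit of BK channels, had 40.0, 32.3 and 30.5 CPM in mAktDKO EDL and 62.0, 50.9 and 35.3 CPM in control EDL, with overlap (log2FC -0.53, edgeR adjusted p = 0.142). Tmem38b, a potassium-permeable channel of the endoplasmic reticulum membrane, had 53.6, 46.1 and 59.7 CPM against 87.0, 68.8 and 69.2 CPM, without overlap (log2FC -0.50, edgeR adjusted p = 0.0714).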

How the data were processed

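Whole EDL was sequenced from 3 mAktDKO mice and 3 floxed controls. The authors aligned paired-end, 37 bp reads to mm10 with STAR (version 2.6.1b in the submitters' processing notes) and obtained expected counts per gene from RSEM 1.3.1. These estimated counts were deposited without scaling between mice and were rounded here to whole numbers. Columns of the controls bear the numbers 2 to 4 whereas their labels run from 1 to 3, which tied them to the group but not to a sample.

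Genes were kept by filterByExpr (minimum count 10), normalised by TMM and compared with the quasi-likelihood test of edgeR 4.0.16 in R 4.3.3. P-values were adjusted by Benjamini-Hochberg over 12892 genes. The SE is the size of the log2 fold change divided by the square root of F. DESeq2 1.42.0 (the study used DESeq2 too), other scalings and filters, and the omission of each mouse were tried as alternatives. The test was checked on simulated data. No source used here says more of the replicates than that they are separate samples, so p-values measure the spread between these samples. Exon lengths and positions came from GENCODE annotation of mm10. Floors cover counting error only.

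Values in every mouse are given for Kcng4, for tested channel genes with an unadjusted p under 0.05 and for the highest of each group. They are also given for tested known channels of the fibre other than Kcnq5, and for partners with an unadjusted p under 0.05. Kcnq5 is given by the range of each group and Abcc9 by mean and SD. Some genes are not reported here. The genes and lists were chosen with earlier results of these data known.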

Additional observations from a re-analysis of the deposited data

How the results depend on the processing

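No paired analysis was possible because controls are numbered 2 to 4 in the table and 1 to 3 in the labels. The number of potassium channel genes called at an adjusted p under 0.01, 0 with edgeR, was 2 with no filter on low counts (Kcng4 and Kcna7), 4 with DESeq2, and 0 to 1 without one mouse (1, Kcng4, without control mouse 4), and it was 3 at an adjusted p under 0.05 and 12 without adjustment. Over all genes the count of 3 became 32 with no filter, 329 with DESeq2, 152 at an adjusted p under 0.05, 3164 without adjustment, and 0 to 8 without one mouse. Among partner genes it was 2 with DESeq2, 5 without adjustment and 0 without any one mouse. The number of potassium channel genes whose groups did not overlap was 12 to 21 without one mouse, where fewer mice have to be separated (17 without mAktDKO mouse 3 and 21 without control mouse 2). The median log2 fold change of the potassium channel genes, 0.059, was 0.19 with library totals, 0.21 with no filter (75 genes), -0.053 with at least 10 counts in every mouse (31 genes), -0.18 with DESeq2 (24 genes), and -0.047 to 0.13 without one mouse, so its sign depended on the setting. The cause was not tested, beyond the different genes that each filter keeps. Kcnc4 was at 0.097 with library totals and from -0.13 to 0.045 without one mouse, positive without control mouse 3. Among the genes given by mouse and Abcc9, Clcn1 and Scn4a, no other changed direction under an alternative run, and the remaining channel genes were not followed singly, though the splits with library totals show that some estimates near 0 turned positive. Depth limits the 15 tested potassium channel genes that averaged under 5 CPM.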
